A study of Homo sapiens with 8 samples.

Results

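The homeobox genes of THP-1 cells are described here: genes for transcription factors that bind DNA through a homeodomain, together with a few relatives that share their names. They were chosen by gene symbol alone, namely the HOXA to HOXD clusters, MEIS, PBX, PKNOX, TGIF, IRX, the family of SIX2 and SIX3, POU, NKX, LHX, DLX, MSX, CDX, PAX, HHEX, HLX, ZEB and CUX. Of 14884 named genes on the array, 113 carried such a symbol. They comprised 106 coding genes, among them the POU coactivators POU2AF1 and POU2AF3, and 7 antisense transcripts and pseudogenes. PAX1 and PAX9 carry a paired box without a homeodomain and were kept because the symbols fit. The working name of the group refers to the HOXA leukaemia programme, but only 1 of 11 HOXA genes, HOXA2, was among the named probes. HOXA9, HOXA10 and the other HOXA genes were not analysed here, so the data do not show that programme.

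THP-1 is an established line of human acute monocytic leukaemia whose MLL-AF9 fusion joins a chromatin regulator to an elongation factor partner. Cells were exposed for 5 h to IPA-3 at 6 µg/mL, to FRAX-597 at 2 µg/mL, or to the same volume of the solvent DMSO. Both compounds inhibit p21-activated kinases (PAKs): IPA-3 binds outside the ATP site, and FRAX-597 competes with ATP. IPA-3 was measured on 2 arrays beside DMSO 1 and 2, and FRAX-597 on 2 arrays beside DMSO 3 and 4, so that 8 arrays were used. All cells carried the same fusion and none was untreated. The study's title names PAK1 as a target in acute myeloid leukaemia. HLX, a homeobox gene overexpressed in that disease, is known to act upstream of PAK1.

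Homeodomain proteins set cell identity. HOX proteins pattern the body axis and, in blood, keep stem and progenitor cells immature; they bind DNA with partners of the TALE class, chiefly MEIS and PBX proteins. MLL fusions hold HOXA9 and MEIS1 active, and this pair with PBX3 sustains the leukaemia. ZEB2, HLX and CUX1 belong to the homeodomain genes active in myeloid cells, whereas most POU, NKX, LHX, DLX and IRX genes are known from the nervous system, gut, skin or sense organs.

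Values are log2 expression values of 1 probe per gene, the brightest on average. The arrays formed 2 sets on different scales, with medians over all probes of 6.00 to 6.05 for DMSO 3, DMSO 4 and FRAX-597, and of 5.51 to 5.55 for DMSO 1, DMSO 2 and IPA-3. The sets were recognised from the values and carry no label. Each compound was therefore set against the controls on the same scale. Changes are differences of log2 means from limma, and a gene was called at a Benjamini-Hochberg adjusted p under 0.05 over all 14884 genes. With 2 arrays a side the precision is low, and p-values measure only the spread between arrays, which may be technical. Each gene has 1 spread shared by all 8 arrays, so differences within either set widen the errors of both compounds. In RNA from whole cultures, fewer cells of a kind and less RNA per cell cannot be told apart. Of 10 measured monocytic markers, LYZ, SPI1, CSF1R, CD68, TYROBP, MNDA and CTSS were above the background level defined below in all 8 arrays. CD14, CD36 and MPO were not. Of 4 T cell, 2 B cell, 2 erythroid and 2 fibroblast markers none was. Of 5 epithelial markers, KRT18 alone was.

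Different probes differ in brightness for the same amount of RNA, so the order of levels between genes is only a rough description. As a background level the 95th percentile of 101 genes for keratin-associated proteins and late cornified envelope proteins was used, which are known from hair and skin. This percentile was 7.62 in DMSO 3 and 7.90 in DMSO 4, and 7.04 in DMSO 1 and 7.0 in DMSO 2. The median of the same 101 genes was 5.15 and 5.33 in DMSO 3 and 4, and 4.55 and 4.57 in DMSO 1 and 2. A value below the background level can therefore still lie above most of these genes. In all 4 DMSO arrays, 10 of 113 homeobox genes lay above it, against 4345 of all 14884 genes. The 10 were CUX1, HLX, IRX3, IRX5, PBX2, PBX3, SIX3, ZEB2 and the pseudogenes POU5F1P3 and POU5F1P4. At the 90th percentile of the same skin and hair genes the count was 20, which is not set against all genes here. The median over the 113 genes was 6.39 in DMSO 3 and 4 and 5.88 in DMSO 1 and 2. The 27 measured HOX genes had medians of 5.85 and 5.16 in these pairs. These medians lay below the background level but above the medians of the skin and hair genes.

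**Figure D1:**
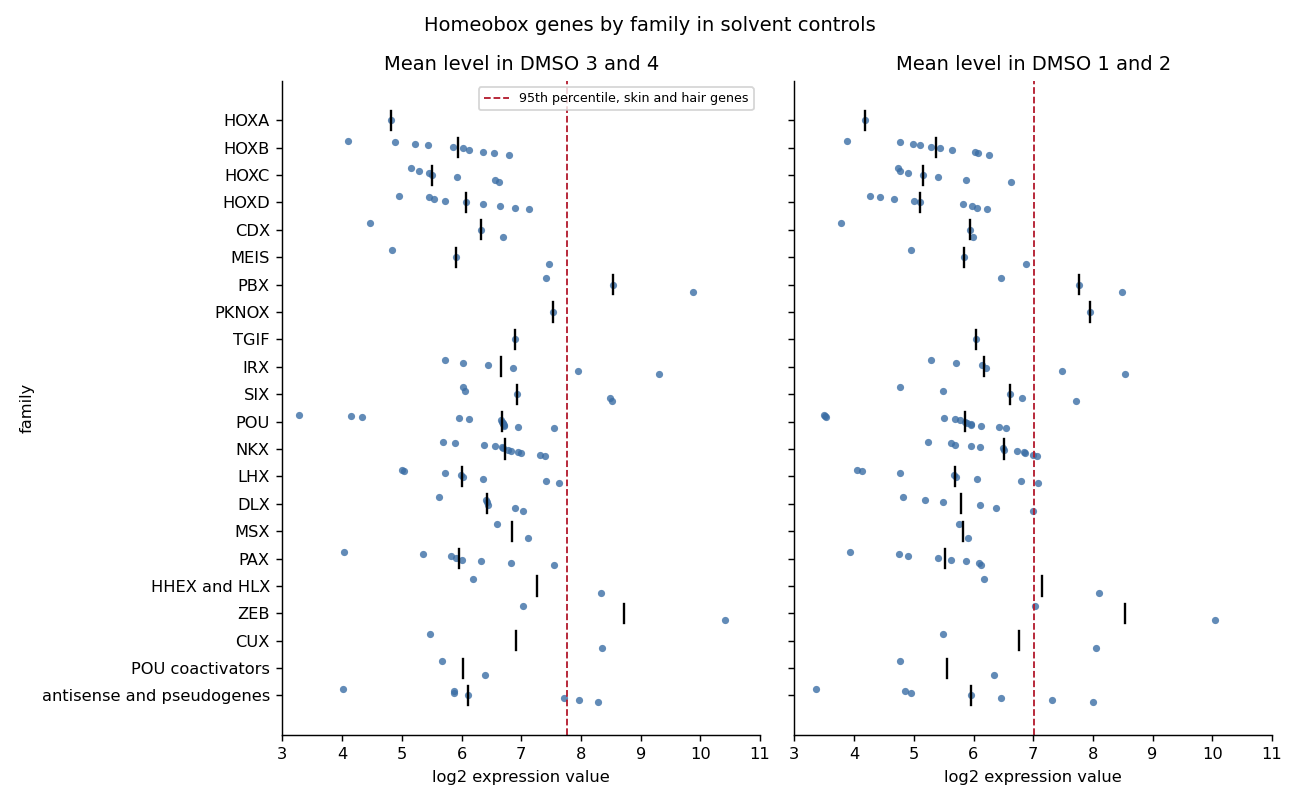
Mean log2 expression value of each homeobox gene (points) by family (rows) in DMSO 3 and 4 on the left and DMSO 1 and 2 on the right, with the family median as a black bar and the 95th percentile of 101 skin and hair genes as a dashed line. Every HOX point lies left of the dashed line, and ZEB2, PBX3 and IRX3 lie farthest to its right.

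None of the 27 HOX genes exceeded the background level in any of the 8 arrays. HOXB was measured in full with 10 of 10 genes, HOXC with 7 of 9 and HOXD with 9 of 9. Mean HOX values ran from 4.11 to 7.13 in DMSO 3 and 4 and from 3.89 to 6.64 in DMSO 1 and 2. HOXA2, which patterns the hindbrain and branchial arches, had 4.37 and 4.43 with IPA-3, against 4.20 and 4.15 in DMSO 1 and 2. In the second set it had 4.49 and 4.62 with FRAX-597, against 4.57 and 5.05 in DMSO 3 and 4. The IPA-3 arrays were thus higher than their controls, the FRAX-597 arrays overlapped theirs, and the adjusted p was 0.81 and 0.833. The brightest HOX gene in DMSO 3 and 4 was HOXD4 at 7.13 ± 0.02, and in DMSO 1 and 2 it was HOXC12 at 6.64 ± 0.15 (SD, n = 2 each).

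The compounds moved no HOX gene past the test. With IPA-3 the log2 changes of the 27 HOX genes ran from -0.26 to 0.22, with 16 above 0 and 11 below, and the smallest adjusted p was 0.695. HOXB7 was among the 8 homeobox genes with the smallest p, at 5.82 and 5.78 with IPA-3 against 6.07 and 5.99 in DMSO 1 and 2. Its log2 change was -0.23 ± 0.10 (SE; adjusted p = 0.695 by limma). With FRAX-597 the changes ran from -0.26 to 0.17, with 7 above 0 and 20 below, and the smallest adjusted p was 0.813. Values this close to or below the background level limit what a change of HOX RNA could show on these arrays.

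The promoter of HOXA2 is shown because it is the only HOXA gene measured. It is the 250 bases before the gene's start in RefSeq, at chr7:27102684-27102933 of GRCh38.p14 on the minus strand, and capitals mark matches to motifs searched on both strands.
HOXA2: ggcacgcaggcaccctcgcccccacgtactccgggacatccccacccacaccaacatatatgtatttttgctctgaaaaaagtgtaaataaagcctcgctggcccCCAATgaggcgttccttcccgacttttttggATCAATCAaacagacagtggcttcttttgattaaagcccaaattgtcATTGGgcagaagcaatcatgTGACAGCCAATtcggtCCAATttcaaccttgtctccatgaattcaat
The motifs were the CCAAT box, the GC box with the letters GGGCGG, the core bound by MEIS and TGIF proteins with the letters TGACAG, and the E-box bound by ZEB proteins with the letters CAGGTG. The other two were the composite of PBX and HOX with the letters TGATTGAT and the common homeodomain core with the letters TAATTA. No motif contains another. This promoter held 6 matches, of which a MEIS and TGIF core adjoins a CCAAT box, and it held the PBX and HOX composite, present in 0.472% of all 27305 promoters of this length and in 2 of 74 promoters matched to homeobox genes. A match is a description of letters and not a binding site. Among the 74, the CCAAT box was present in 51.4%, against 33.0% of all promoters, and the GC box in 58.1%, against 42.3%. Their median GC content was 64.2%, against 58% of all promoters and 62.4% of those of coding genes. The ZEB E-box was found in 6.76% against 17.5%, the MEIS and TGIF core in 10.8% against 13.1%, and the homeodomain core in 5.41% against 4.49%. Only 15843 of the 27305 promoters belong to coding genes, and motif shares over these alone were not computed.

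Among the HOX partners of the TALE class, PBX3 and PBX2 were bright and MEIS1 was not. MEIS1, the partner of HOXA9 in MLL-rearranged leukaemia, had 4.97 and 4.89 with IPA-3, against 4.92 and 4.99 in DMSO 1 and 2. It had 4.79 and 4.86 with FRAX-597, against 4.91 and 4.77 in DMSO 3 and 4. All 8 values lay between 4.77 and 4.99, below the background level. Its log2 change was -0.03 with IPA-3 (95% interval -0.28 to 0.23) and -0.01 with FRAX-597 (-0.26 to 0.24). MEIS3 was similarly placed, with means of 5.91 ± 0.05 in DMSO 3 and 4 and 5.84 ± 0.02 in DMSO 1 and 2 (SD, n = 2 each) and changes of -0.12 with IPA-3 and -0.03 with FRAX-597. MEIS2 had 6.43 and 7.59 with FRAX-597, against 7.24 and 7.69 in DMSO 3 and 4, so the arrays within each group differed more than the groups. It had 6.84 and 6.79 with IPA-3, against 6.86 and 6.90 in DMSO 1 and 2. The dimmer probe of MEIS2 had a change of -0.29 with IPA-3 and of 0.00086 with FRAX-597.

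PBX3, a partner of HOXA9 and MEIS1, had 8.52 and 8.53 with IPA-3, against 8.49 and 8.50 in DMSO 1 and 2. The change of 0.03 ± 0.13 (SE) had a 95% interval of -0.29 to 0.34. With FRAX-597 it had 10.23 and 9.88, against 9.91 and 9.84 in DMSO 3 and 4, a change of 0.18 ± 0.13 with overlapping groups (adjusted p = 0.865, limma). PBX3 differed between the controls by far more than with either compound. Its mean was 9.88 ± 0.04 in DMSO 3 and 4 and 8.49 ± 0.01 in DMSO 1 and 2 (SD, n = 2 each), a log2 difference of 1.38, and 0.90 above the median difference of all genes. Among all genes of the array it stood at the 94.1 percentile in DMSO 3 and 4 and at the 83.6 percentile in DMSO 1 and 2.

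PBX2 was represented by 6 probes, and the brightest gave 7.65 and 7.55 with IPA-3, against 7.77 and 7.76 in DMSO 1 and 2. It gave 7.94 and 8.97 with FRAX-597, against 8.20 and 8.88 in DMSO 3 and 4. In the second set array 2 of FRAX-597 and DMSO 4 were high and FRAX-597 1 and DMSO 3 low, and the other 5 probes, which hold only 2 distinct sets of values, split the same arrays in the same way. PBX4 showed no such split, with changes of -0.02 with IPA-3 and -0.11 with FRAX-597. PKNOX1, which pairs with PBX proteins, had 8.04 and 7.93 with IPA-3, against 7.97 and 7.95 in DMSO 1 and 2. With FRAX-597 it had 7.36 and 7.82, against 7.45 and 7.61 in DMSO 3 and 4, overlapping. It was the homeobox gene with the lowest control difference, -0.43 (95% interval -0.81 to -0.05; adjusted p = 0.052, limma), which is 0.91 below the median of all genes.

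TGIF1, a repressor that binds the same core as MEIS proteins and restrains TGF-beta signalling, rested on a single array. It had 8.07 and 6.84 with FRAX-597, against 7.02 and 6.76 in DMSO 3 and 4. The mean change of 0.56 ± 0.34 (SE; adjusted p = 0.827, limma) became 1.18 without FRAX-597 2 (adjusted p = 0.0166) and -0.05 without FRAX-597 1. With IPA-3 the values were 6.12 and 6.06, against 6.06 and 6.03 in DMSO 1 and 2.

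No homeobox gene was called with IPA-3, where 5 of all genes (0.0336%) were. At an unadjusted p under 0.05, 3 of 113 homeobox genes (2.65%) passed, against 7.21% of all genes, and between 1 and 8 did with an array left out. They were IRX3, which was lower (0.885%, against 4.11% of all genes), and POU2F2 and POU3F1, which were higher (1.77%, against 3.1%). The median log2 change of the 113 was 0.04, against -0.02 for all genes, and ranged from 0.00077 to 0.066 with an array left out. 41 homeobox genes (36.3%) had a change below 0, against 55.6% of all genes. The arrays did not overlap for 26 higher genes (23.0%, against 19.3% of all genes) and for 18 lower genes (15.9%, against 28.3%).

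No homeobox gene was called with FRAX-597 either, where 23 of all genes (0.155%) were. At an unadjusted p under 0.05, 12 of 113 (10.6%) passed, against 7.66% of all genes. 11 of these 12 were lower (9.73% of the 113, against 3.61% of all genes), namely IRX3, IRX5, SIX2, SIX3, SIX6, ZEB2, HLX, POU2F2, LHX2, NKX2-3 and POU5F1P4, and NKX2-4 was higher (0.885%, against 4.04%). SIX2 and NKX2-3 are named although their choice followed the sight of their values. The median change was -0.05, against -0.02 for all genes, and 75 genes (66.4%) were below 0, against 54.7%. The arrays did not overlap for 28 lower genes (24.8%, against 17.8% of all genes) and for 9 higher genes (7.96%, against 13.0%). Over the 12 homeobox genes whose mean over the 8 arrays was above the mean background level, a split added after the data were seen, the median change with FRAX-597 was -0.42, against -0.02 for the 5289 genes of the array that passed the same filter. With IPA-3 it was -7.25e-05 over these 12, against -0.08. These medians are a description, since the filter uses the same values whose changes are compared. SIX2 was among the 12 only through its higher values in the second set. In each first-set array SIX2 lay below the background level. PKNOX1 was among the 12 only through the first set and lay below that level in each second-set array.

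The count with FRAX-597 depended on the treatment of the arrays within the second set. With DMSO 3 and FRAX-597 1, and DMSO 4 and FRAX-597 2, as a replicate block, 3 homeobox genes were called among 202 of all genes: IRX3 and SIX3 lower (adjusted p = 0.049 and 0.0462, limma) and NKX2-4 higher (adjusted p = 0.0413). The pairs were taken from these same values and not from the labels, which favours a smaller spread. Without FRAX-597 2, which leaves 1 FRAX-597 array, the change was -0.81 for IRX3 and 1.18 for TGIF1.

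**Figure D2:**
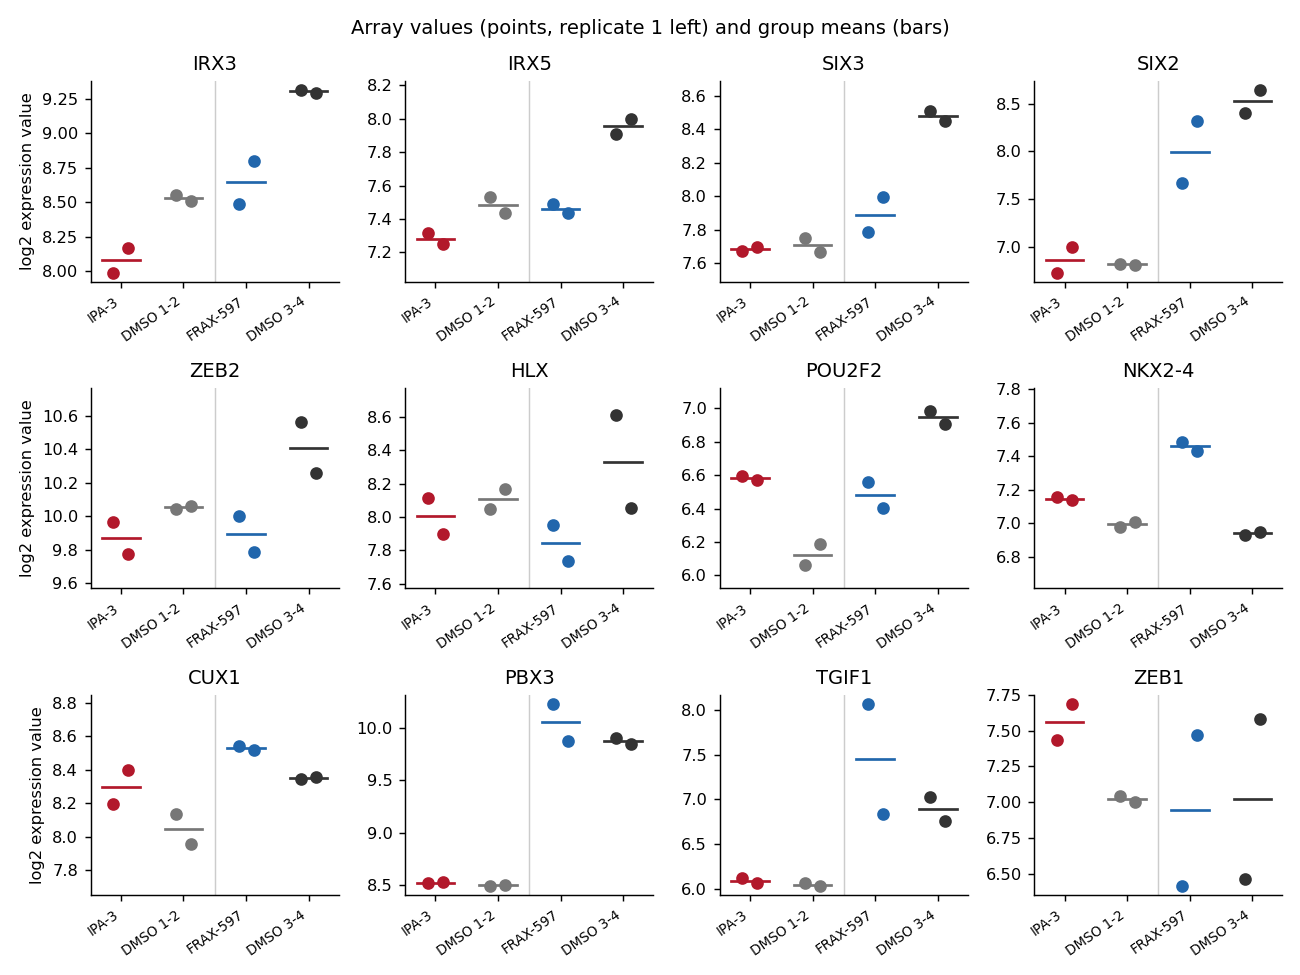
Log2 expression value (vertical axis) of 12 homeobox genes in each array, with array 1 to the left of array 2 (for DMSO 3-4, DMSO 3 to the left), bars at the group means and a grey line between the array sets. IRX3, IRX5, SIX3, SIX2, ZEB2, HLX and POU2F2 are lower in both FRAX-597 arrays than in both DMSO 3 and 4 arrays, NKX2-4 is higher, and TGIF1 and ZEB1 differ within the FRAX-597 group.

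The Iroquois genes IRX3 and IRX5 were lower than their controls with both compounds, without overlap and without passing the test. IRX3 encodes a developmental regulator of the TALE class that is expressed in part of acute myeloid leukaemias. It had 7.99 and 8.17 with IPA-3, against 8.55 and 8.51 in DMSO 1 and 2, and 8.49 and 8.80 with FRAX-597, against 9.31 and 9.29 in DMSO 3 and 4. The log2 change was -0.45 ± 0.13 with IPA-3 (SE; unadjusted p = 0.0109, adjusted p = 0.554) and -0.66 ± 0.13 with FRAX-597 (95% interval -0.97 to -0.34; adjusted p = 0.209, limma), which is 1.58-fold lower. The changes differed by -0.21 ± 0.19 (adjusted p = 0.941, 95% interval -0.65 to 0.24).

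IRX5, the next coding gene to IRX3 on chromosome 16, is known from heart and eye development. It had 7.49 and 7.43 with FRAX-597, against 7.91 and 8.0 in DMSO 3 and 4, a change of -0.49 ± 0.10 (SE; adjusted p = 0.219, limma). With IPA-3 it had 7.31 and 7.25, against 7.53 and 7.44 in DMSO 1 and 2, a change of -0.20 ± 0.10 (adjusted p = 0.745). IRX6, the next gene on the other side of IRX5 and chosen after its values were seen, did not share this: it had 5.38 and 5.91 with FRAX-597, against 5.75 and 5.70 in DMSO 3 and 4. The other Iroquois genes, IRX1, IRX2 and IRX4, named after their values were seen, had changes between -0.10 and 0.19 with FRAX-597 and between 0.11 and 0.18 with IPA-3.

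SIX3 and SIX2, neighbours on chromosome 2, were both lower with FRAX-597 than in its controls. SIX3, a regulator of forebrain and eye formation, had 7.79 and 7.99 with FRAX-597, against 8.51 and 8.45 in DMSO 3 and 4, a change of -0.59 ± 0.11 (SE; 95% interval -0.85 to -0.32; adjusted p = 0.195, limma). With IPA-3 it had 7.67 and 7.70, against 7.75 and 7.67 in DMSO 1 and 2, where the groups overlapped. The difference between the compounds was -0.56 ± 0.16 (unadjusted p = 0.00899, adjusted p = 0.635). SIX2, which maintains progenitors of the kidney, had 7.67 and 8.32 with FRAX-597, against 8.40 and 8.64 in DMSO 3 and 4. Its change was -0.53 ± 0.22 (adjusted p = 0.624), and the FRAX-597 arrays differed by more than the DMSO arrays. With IPA-3 it had 6.73 and 7.0, against 6.82 and 6.81 in DMSO 1 and 2. SIX6, a relative of SIX3 in the eye, had 5.82 and 5.59 with FRAX-597, against 5.97 and 6.08 in DMSO 3 and 4, at levels below background. SIX5, also chosen after its values were seen, had a change of 0.20 with FRAX-597, and of 0.21 on its other probe.

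ZEB2 and HLX, both known from myeloid cells, were below their controls with FRAX-597 without passing the test. ZEB2, a zinc-finger and homeodomain repressor needed in the monocytic lineage, was the brightest homeobox gene over the 4 DMSO arrays. It had 10.00 and 9.79 with FRAX-597, against 10.56 and 10.26 in DMSO 3 and 4, a change of -0.51 ± 0.15 (SE; unadjusted p = 0.00855, adjusted p = 0.385, limma). With IPA-3 it had 9.97 and 9.77, against 10.04 and 10.06 in DMSO 1 and 2, a change of -0.18 ± 0.15 (adjusted p = 0.841). HLX had 7.95 and 7.74 with FRAX-597, against 8.61 and 8.06 in DMSO 3 and 4, a change of -0.49 ± 0.19 (95% interval -0.94 to -0.04; unadjusted p = 0.0372, adjusted p = 0.611). The FRAX-597 arrays lay below both controls, but the controls differed by more than the FRAX-597 arrays did, and the change was -0.21 without DMSO 3 and -0.76 without DMSO 4. With IPA-3 HLX had 8.11 and 7.90, against 8.05 and 8.17 in DMSO 1 and 2, so the groups overlapped. HHEX, its relative in blood and endothelium, had a change of -0.17 with FRAX-597 and -0.03 with IPA-3, at levels of 6.01 ± 0.18 and 6.15 ± 0.12 with these compounds (SD, n = 2 each).

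ZEB1 and the CUX genes did not share the lower values. ZEB1, the relative of ZEB2 known from epithelial-mesenchymal transition, had 7.44 and 7.69 with IPA-3, against 7.05 and 7.0 in DMSO 1 and 2. That change of 0.54 ± 0.41 was the highest of the homeobox genes with IPA-3 (adjusted p = 0.83, limma). Its error uses 1 spread shared by all 8 arrays, so it also holds the differences within the second set. The arrays within each group of the second set differed more, with 6.42 and 7.47 with FRAX-597, against 6.47 and 7.58 in DMSO 3 and 4. CUX1, a homeodomain gene of 7q that is often lost in myeloid disease, had 8.20 and 8.40 with IPA-3, against 8.14 and 7.96 in DMSO 1 and 2. It had 8.54 and 8.52 with FRAX-597, against 8.34 and 8.35 in DMSO 3 and 4. CUX1 was higher without overlap with both compounds, with changes of 0.25 ± 0.12 and 0.18 ± 0.12 (adjusted p = 0.717 and 0.839). CUX2, known from cortical neurons, had changes of 0.16 with IPA-3 and -0.01 with FRAX-597 at group means of at most 5.64.

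No POU gene was called with either compound. Of 13 POU genes, 3 had a change below 0 with IPA-3, where 55.6% of all genes did, and 11 with FRAX-597, where 54.7% did. The FRAX-597 change was lower than the IPA-3 change for 12, against 48.4% of all genes. At an unadjusted p under 0.05 there were 2 of 13 with IPA-3 (7.21% of all genes) and 1 of 13 with FRAX-597 (7.66% of all genes). POU2F2 (OCT2), known from B cells and also present in macrophages, had the smallest p of the homeobox genes in the test of the difference. It had 6.59 and 6.57 with IPA-3, against 6.06 and 6.19 in DMSO 1 and 2, a change of 0.46 ± 0.11 (SE; unadjusted p = 0.00386, adjusted p = 0.508). It had 6.56 and 6.41 with FRAX-597, against 6.98 and 6.91 in DMSO 3 and 4, a change of -0.46 ± 0.11 (unadjusted p = 0.00371, adjusted p = 0.287). The changes differed by -0.92 ± 0.16 (95% interval -1.29 to -0.55; unadjusted p = 0.000496, adjusted p = 0.349, limma). All values were below the background level of their arrays.

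POU3F1 (OCT6), known from Schwann cells, had 5.77 and 5.71 with IPA-3, against 5.48 and 5.51 in DMSO 1 and 2, and 6.51 and 6.52 with FRAX-597, against 6.63 and 6.69 in DMSO 3 and 4. Its changes of 0.24 ± 0.10 and -0.14 ± 0.10 (SE) differed by -0.38 (adjusted p = 0.772, limma). POU2F3, known from tuft cells, was lower with both compounds, with changes of -0.22 ± 0.12 and -0.23 ± 0.12 with IPA-3 and FRAX-597 (adjusted p = 0.75 and 0.762). Its coactivator POU2AF3 was the single homeobox gene lower with IPA-3 and higher with FRAX-597 without overlap (0.885%, against 2.96% of all genes). It had 5.95 and 6.24 with IPA-3, against 6.43 and 6.27 in DMSO 1 and 2, and 6.65 and 6.65 with FRAX-597, against 6.37 and 6.41 in DMSO 3 and 4. POU2AF1, the B cell coactivator, also outside the rule for named genes, had a change of 0.08 and -0.01 with IPA-3 and FRAX-597. The pseudogene POU5F1P4 was bright, at 8.34 and 8.26 with IPA-3, against 7.98 and 8.03 in DMSO 1 and 2. With FRAX-597 it had 7.91 and 7.97, against 8.12 and 8.45 in DMSO 3 and 4. POU5F1 and its copies are near-identical, so the probe's signal cannot be assigned to 1 copy with certainty; POU5F1 itself, named after its values were seen, had 5.96 ± 0.21 in DMSO 3 and 4 and 5.69 ± 0.10 in DMSO 1 and 2 (SD, n = 2 each).

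Among the other families, NKX2-4 and LHX2 had the smallest p. NKX2-4, a relative of the lung and thyroid factor NKX2-1, had 7.49 and 7.43 with FRAX-597, against 6.93 and 6.95 in DMSO 3 and 4, a change of 0.52 ± 0.10 (SE; 95% interval 0.29 to 0.75; unadjusted p = 0.000886, adjusted p = 0.192, limma). With IPA-3 it had 7.16 and 7.14, against 6.98 and 7.01 in DMSO 1 and 2, a change of 0.15 ± 0.10 (adjusted p = 0.779). Both compounds were above their controls, though the second-set values were below the background level. LHX2, a regulator of hair follicle and forebrain progenitors, had 6.92 and 7.21 with IPA-3, against 6.79 and 6.80 in DMSO 1 and 2, and 7.18 and 7.27 with FRAX-597, against 7.58 and 7.67 in DMSO 3 and 4. Its changes of 0.27 and -0.40 differed by -0.67 ± 0.18 (adjusted p = 0.601), and its dimmer probe had changes of 0.29 and -0.14. Of LHX5 and LHX9, known from brain and gonad, LHX5 was lower with IPA-3 at -0.35 ± 0.15 (adjusted p = 0.69) and LHX9 higher at 0.31 ± 0.15 (adjusted p = 0.717), at group means of at most 5.00 and 5.08.

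The families CDX, DLX, MSX and PAX held no gene at an unadjusted p under 0.05 with either compound. Of all genes, 7.21% passed with IPA-3 and 7.66% with FRAX-597, so few would be looked for in families this small. CDX2, the brightest CDX gene and an intestinal factor, had a change of 0.09 with IPA-3 and 0.02 with FRAX-597. MSX2, known from skull and limb, had a change of 0.13 and -0.05. Over the 6 DLX genes changes ran from -0.06 to 0.43 with IPA-3 and from -0.26 to 0.09 with FRAX-597, and over the 8 PAX genes from -0.16 to 0.22 and from -0.28 to 0.20. Over the 12 NKX genes they ran from -0.15 to 0.15 and from -0.32 to 0.52.

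The promoters of 4 of these genes are shown because the genes were among those at an unadjusted p under 0.05, lower for HLX, SIX2 and POU2F2 and higher for NKX2-4 with FRAX-597. Each is the 250 bases before the start of the gene in RefSeq for GRCh38.p14, at chr1:220879193-220879442 (plus strand) for HLX, chr2:45009453-45009702 (minus) for SIX2, chr19:42132447-42132696 (minus) for POU2F2 and chr20:21397527-21397776 (minus) for NKX2-4. Capitals mark the same motifs as for HOXA2.
HLX: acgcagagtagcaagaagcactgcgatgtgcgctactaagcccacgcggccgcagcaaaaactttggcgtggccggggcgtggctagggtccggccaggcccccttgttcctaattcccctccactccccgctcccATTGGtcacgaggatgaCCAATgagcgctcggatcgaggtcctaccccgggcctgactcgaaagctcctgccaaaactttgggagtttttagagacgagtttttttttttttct
SIX2: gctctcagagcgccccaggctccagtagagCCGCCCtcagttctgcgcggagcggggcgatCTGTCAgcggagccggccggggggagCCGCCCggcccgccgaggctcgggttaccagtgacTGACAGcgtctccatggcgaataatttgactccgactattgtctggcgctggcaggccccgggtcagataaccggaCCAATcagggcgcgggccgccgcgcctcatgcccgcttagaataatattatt
POU2F2: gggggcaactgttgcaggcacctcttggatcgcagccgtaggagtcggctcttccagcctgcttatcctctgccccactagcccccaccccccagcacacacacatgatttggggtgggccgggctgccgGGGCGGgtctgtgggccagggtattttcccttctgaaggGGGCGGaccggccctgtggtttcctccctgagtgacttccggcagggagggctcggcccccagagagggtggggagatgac
NKX2-4: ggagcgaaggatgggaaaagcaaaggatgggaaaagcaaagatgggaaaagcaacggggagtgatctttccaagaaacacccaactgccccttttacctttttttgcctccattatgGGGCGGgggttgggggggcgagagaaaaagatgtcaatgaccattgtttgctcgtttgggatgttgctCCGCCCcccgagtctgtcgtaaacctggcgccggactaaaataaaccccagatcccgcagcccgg
HLX held 2 CCAAT boxes, on opposite strands. SIX2 held 5 matches, to the CCAAT box, the GC box and the MEIS and TGIF core, and POU2F2 and NKX2-4 held 2 GC boxes each. None of these 4 windows held the letters of the other 3 motifs.

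No homeobox gene was called in the test of the FRAX-597 change minus the IPA-3 change, where 2 of all genes (0.0134%) were. At an unadjusted p under 0.05 there were 8 (7.08%, against 6.11% of all genes; between 4 and 11 with an array left out), of which NKX2-4 and POU2AF3 were above 0 (1.77%, against 3.43%) and POU2F2, LHX2, SIX3, POU5F1P4, POU3F1 and HOXD4 below 0 (5.31%, against 2.67%). HOXD4 had a change of 0.20 with IPA-3 and -0.15 with FRAX-597, while its other probe had a change of 0.31 and 0.06. The median difference of the 113 was -0.10, against 0.01 for all genes, and 79 genes (69.9%) were below 0, against 48.4%. Genes lower than their own controls without overlap with both compounds were HOXC13, IRX3, IRX5, POU2F3 and ZEB2 (4.42%, against 5.97% of all genes), and those higher with both were CUX1 and NKX2-4 (1.77%, against 3.16%). Higher with IPA-3 and lower with FRAX-597 were HOXD4, LHX2, NKX6-2, POU2F2, POU3F1, POU4F1 and POU5F1P4 (6.19%, against 2.95%). HOXC13, NKX6-2 and POU4F1 are listed here as members of these counts, after their values were seen. The Pearson correlation of the FRAX-597 and IPA-3 changes, which share no arrays, was 0.13 over the 113 genes and 0.19 over all genes, as a description.

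**Figure D3:**
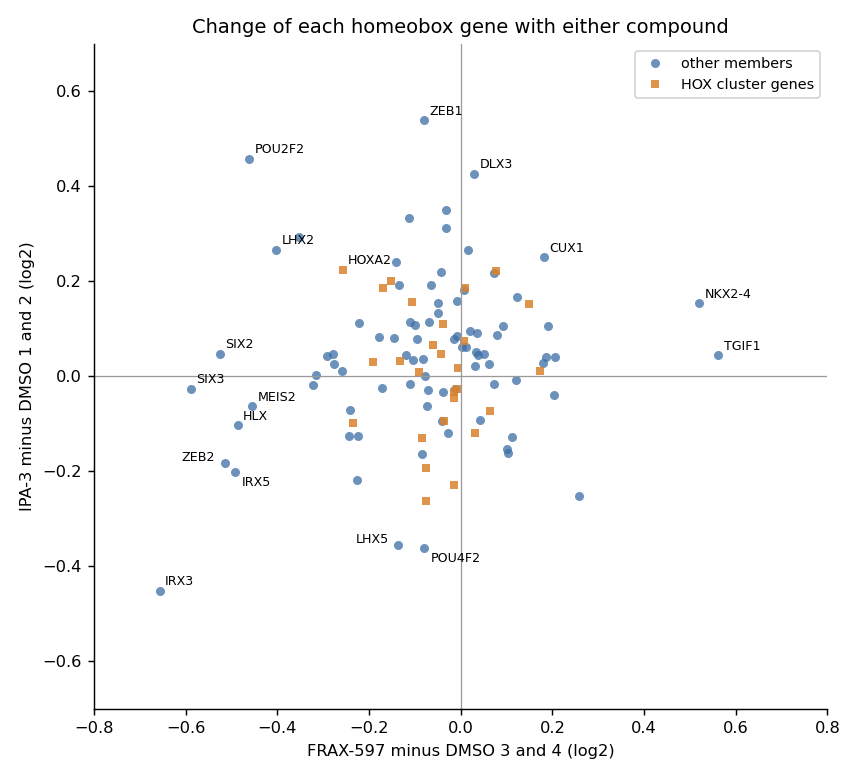
Log2 change of each of 113 homeobox genes with FRAX-597 (horizontal axis) and with IPA-3 (vertical axis), each relative to the DMSO arrays named on its axis, with HOX cluster genes as squares. HOX genes lie between -0.26 and 0.22 on both axes, IRX3 lies farthest to the lower left, POU2F2 to the upper left, and NKX2-4 and TGIF1 to the right.

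The DMSO pairs differed for most homeobox genes, as for most genes. In DMSO 3 and 4 against DMSO 1 and 2, 68 of 113 (60.2%, against 59.9% of all genes) were called and all 68 were higher in DMSO 3 and 4, a direction called for 54.9% of all genes. The median difference was 0.58, against 0.48 for all genes, and culture and array processing cannot be told apart in it. The count was 39 with the array medians subtracted and 38 after quantile normalization. These 2 counts are not set beside all genes, so they do not show whether the homeobox genes still followed all genes. SIX2 differed by 1.71, with 8.52 ± 0.17 in DMSO 3 and 4 and 6.82 ± 0.01 in DMSO 1 and 2 (SD, n = 2 each), which is 1.23 above the median of all genes. LHX4, a pituitary factor chosen after its values were seen, differed by 1.68, with 5.73 ± 0.21 in DMSO 3 and 4 and 4.05 ± 0.11 in DMSO 1 and 2, and its antisense transcript LHX4-AS1 differed by 1.25. No source used here gives the strand of the probes, and signal of such overlapping genes cannot be told apart. IRX5, at -0.01 relative to the median, and ZEB2, at -0.12, differed about as all genes did.

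Within the second set, some homeobox genes differed more between arrays of a group than between groups. NKX2-2, the neighbour of NKX2-4 known from pancreas and glia, had 7.79 in FRAX-597 1 and 5.96 in FRAX-597 2, against 7.60 in DMSO 3 and 5.96 in DMSO 4. DLX3, a regulator of skin and tooth, had 5.96 and 6.96 with FRAX-597, against 5.79 and 7.07 in DMSO 3 and 4. PAX5, which commits B cells, had 7.58 and 6.97 with FRAX-597, against 8.36 and 6.74 in DMSO 3 and 4. These 3 genes, chosen after their values were seen, share with ZEB1 and PBX2 a difference of over 0.5 in the same direction in both groups, a pattern of 5 of 113 homeobox genes (4.42%, against 5.66% of all genes). The other probe of NKX2-2 had 6.14 and 5.90 with FRAX-597, against 6.22 and 5.98 in DMSO 3 and 4, a smaller difference of the same direction. Across the 113 genes the Pearson correlation of FRAX-597 1 minus FRAX-597 2 with DMSO 3 minus DMSO 4 was 0.67, and over all genes 0.65. In the first set the value over all genes was -0.06. Genes of the same arrays are not independent, and these are descriptions.

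**Figure D4:**
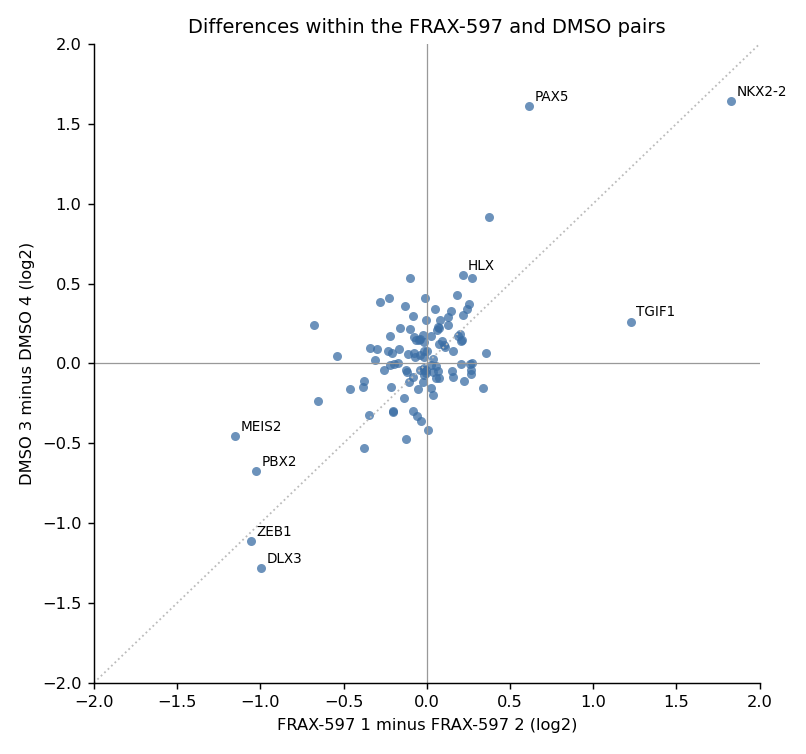
Difference between the FRAX-597 arrays (horizontal axis, log2) and between DMSO 3 and DMSO 4 (vertical axis, log2) for each of 113 homeobox genes, with a dotted line of equality. NKX2-2 and PAX5 lie to the upper right, and ZEB1, DLX3 and PBX2 to the lower left, whereas most genes lie near 0.

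The genes around the HOXA programme were described from 3 lists. Of the regulators of MLL and HOXA transcription, 11 of 27 were measured, and none was called with either compound. With IPA-3, 8 of the 11 were below 0 (55.6% of all genes were), with a median of -0.13, against -0.02 for all genes, and RBBP5 and KAT7 were lower at an unadjusted p under 0.05 (4.11% of all genes). With FRAX-597, 7 of the 11 were below 0 (54.7% of all genes), with a median of -0.10. None reached an unadjusted p under 0.05, where 7.66% of all genes did. RBBP5, a core subunit of the MLL methyltransferase complex, had 9.20 and 9.17 with IPA-3, against 9.61 and 9.67 in DMSO 1 and 2, a change of -0.46 ± 0.15 (SE; adjusted p = 0.598, limma). KAT7, an acetyltransferase required in MLL-rearranged leukaemia, had 8.86 and 8.48 with IPA-3, against 9.07 and 9.02 in DMSO 1 and 2, a change of -0.38 ± 0.15 (adjusted p = 0.664). MEN1, which tethers MLL to HOXA genes, had a change of -0.17 with IPA-3 and -0.29 with FRAX-597 (adjusted p = 0.876 and 0.786).

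Of the Polycomb genes, which keep HOX clusters silent, and the demethylases that oppose them, 15 of 21 were measured. None reached an unadjusted p under 0.05 with either compound, where 7.21% of all genes did with IPA-3 and 7.66% with FRAX-597. KDM6B, a demethylase of the Polycomb mark, had 9.46 in FRAX-597 1 and 7.52 in FRAX-597 2, against 7.43 and 7.36 in DMSO 3 and 4, so its change of 1.10 ± 0.51 (SE; adjusted p = 0.703, limma) rested on a single array. Without FRAX-597 2, which leaves 1 array assumed to vary like the others, it was 2.07 (adjusted p = 0.00165), and without FRAX-597 1 it was 0.13. EZH1, a methyltransferase subunit, had 8.44 and 8.55 with FRAX-597, against 8.15 and 8.35 in DMSO 3 and 4.

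Of the targets of HOXA9 and MEIS1 and the MLL-AF9 programme, 23 of 30 were measured and 1 was called. MYB, a transcription factor that MLL-AF9 cells depend on, fell to 10.12 and 9.97 with FRAX-597, against 10.98 and 10.97 in DMSO 3 and 4. The change was -0.93 ± 0.11 (SE; adjusted p = 0.029, limma). The call held in 1 of 8 fits with an array left out, that without FRAX-597 2, while the change kept its size (-1.004 to -0.86 over 17 alternatives, adjusted p from 0.00645 to 0.769). With IPA-3 it had 9.75 and 9.75, against 10.65 and 10.58 in DMSO 1 and 2, a change of -0.87 ± 0.11 that missed the threshold (adjusted p = 0.0941). The medians of the list were 0.06 with IPA-3 and -0.06 with FRAX-597, beside -0.02 for all genes with each. At an unadjusted p under 0.05, 3 of the 23 were higher with IPA-3 (3.1% of all genes were) and 5 lower (4.11% of all genes), and with FRAX-597 2 were higher (4.04% of all genes) and 3 lower (3.61% of all genes). Outside MYB none of these had an adjusted p under 0.05. TRIB2, a pseudokinase target of MEIS1, had 6.32 and 6.34 with IPA-3, against 5.58 and 5.85 in DMSO 1 and 2, a change of 0.62 ± 0.15 (adjusted p = 0.518). SPI1 (PU.1), the myeloid master regulator that is also a monocytic marker above, had a change of 0.12 with IPA-3 and -0.16 with FRAX-597 (adjusted p = 0.861 and 0.843).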

How the data were processed

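RNA of THP-1 cells was hybridised to Affymetrix whole-transcript arrays, 1 per sample (8 in all). The deposited table holds the authors' log2 expression values for 53617 probes, with 0 missing. Per the submitters' processing notes, Affymetrix Expression Console and Transcriptome Analysis Console were used; no source used here gives the summarisation, the normalization or which arrays were processed together, so the absolute scale is unknown. Platform annotation named 1 gene for 16098 probes and none for 37519; all 16098 gene identifiers matched RefSeq GRCh38.p14. For 779 genes with several probes the one with the highest mean over 8 arrays was kept, which left 14884 genes.

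Groups follow the labels, which share no replicate number between a compound and DMSO 3 or 4. One limma fit (version 3.58.1, R 4.3.3; lmFit and eBayes) with 4 groups gave all contrasts, with Benjamini-Hochberg adjustment over 14884 genes at 0.05 and 95% intervals. In simulated data, 56% of genes changed by 1 on the log2 scale were recovered for IPA-3 and 62% for FRAX-597, so smaller changes would often be missed. The simulated noise was independent between arrays, without the differences shared by pairs of the second set. These shares may therefore not carry over to the arrays. Named were the HOXA, MEIS, PBX, PKNOX, TGIF, HHEX, HLX, ZEB, CUX and POU2 genes, the 8 smallest p per contrast, the 10 highest levels, the brightest gene per family, and, in lists around the HOXA programme, called genes and the 2 smallest p; genes outside this rule are marked. Members, lists and rules were chosen with earlier results of these data known. Olfactory receptor genes, planned as the background, had 1 named probe and were replaced by skin and hair genes after the data were seen. Promoters are from RefSeq (74 of the 113 genes matched), while no source gives the array design's build. The alternatives comprised 17 refits, among them other scalings, pooled controls, each array left out and a replicate block, and changes of the members and of the background level.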

Additional observations from a re-analysis of the deposited data

Results flagged for a closer look

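In the 4 DMSO arrays POU4F2, a factor of retinal ganglion cells, stood at 5.66 in DMSO 4, against 6.44 in DMSO 1, 6.43 in DMSO 2 and 6.57 in DMSO 3. The gap from DMSO 4 to the nearest array was 0.844 of the whole range, above Dixon's 95% limit for 4 samples. Of the 54 named homeobox genes tested in this way it was the single one past the limit. The limit, and the rate of about 1 in 20 groups passed by chance, assume arrays on 1 scale. DMSO 1 and 2 and DMSO 3 and 4 lay on different scales, so the limit serves only as a description here. POU4F2 was chosen after its values were seen, and all its values lay below the background level of their arrays.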

How the results depend on the processing

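No named homeobox gene turned round past the threshold under 17 refits. Changes of sign occurred in 56 of 917 values with IPA-3, 63 of 917 with FRAX-597 and 71 of 863 for their difference, none of them past the threshold on either side. The count with IPA-3 and that of the difference stayed at 0. With FRAX-597 the count of 0 became 3 with the replicate block. It did not always stay at 0 with an array left out, where a lone array is assumed to vary like the others. None of the counts given for fits with an array left out is set beside a share of all genes. The median change with FRAX-597, -0.05, was -0.036 with array medians subtracted, -0.056 over every probe, -0.043 with the mean of a gene's probes and -0.063 without antisense transcripts and pseudogenes; it ranged from -0.086 to -0.035 with an array left out. Over the 10 genes above the background level in the DMSO arrays it was -0.42 and with IPA-3 -0.065, where all 4345 such genes had -0.036 and -0.084; this filter uses the controls of the same changes. By the mean over 8 arrays it was -0.42 too (12 genes). With pooled controls the medians were -0.26 with IPA-3 and 0.23 with FRAX-597, as over all genes (-0.26 and 0.23), since the array sets differ in scale. Gene values under this setting were taken relative to that shift. Among the genes that changed sign under it with each compound were SIX2, HOXD4, POU3F1, POU4F1, MSX2, HOXD8, LHX4, PAX5 and NKX2-2. The count between the DMSO pairs was 68, and 39 with array medians subtracted, 38 after quantile normalization, 5 over those 10 genes, 6 over those 12 and between 50 and 75 with an array left out. Only the 68 is set beside a share of all genes. The replicate block gave 10, 15 and 13 homeobox genes at an unadjusted p under 0.05 with IPA-3, with FRAX-597 and for the difference. These counts are not set beside a share of all genes. By adjusted p the same block called 72, 202 and 38 of all genes in these contrasts, so it raised calls beyond the homeobox genes. The genes above the background level numbered 20 at its 90th percentile. Of the 49 regulators and targets, the 1 called with FRAX-597 (MYB) became 0 with pooled controls, with each set fitted alone and over every probe, and the count ranged from 0 to 2 with an array left out. With IPA-3 the count of 0 became 1 (MYB) with trend and robust moderation and 2 (CD44 and MYB) with each set fitted alone or with the replicate block, and ranged from 0 to 1 with an array left out. That of the difference ranged from 0 to 1 (KDM6B, without FRAX-597 2). The replicate block changed no other call in the compound contrasts. The olfactory receptor background was not run.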
